A study of Mus musculus with 36 samples.

Results

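Collagens are the triple-helical proteins that give the extracellular matrix its strength, and each is built from chains encoded by separate genes. The collagen genes were taken as every protein-coding gene of the count table whose symbol is Col, a number, a and a number, which gave 40 of 29883 genes, or of 17197 protein-coding genes. By the structure their products form, 11 are fibrillar, 6 belong to the type IV basement membrane network, 5 to the beaded filaments of type VI and its relatives, 7 are fibril-associated (FACIT), 3 form hexagonal networks, 2 are multiplexins, 3 are transmembrane collagens, and Col7a1, Col26a1 and Col28a1 were kept as other. Col6a6, Col9a1, Col13a1 and Col22a1 were not analysed here.

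Fibrillar chains are made as procollagens, hydroxylated and folded in the endoplasmic reticulum, trimmed outside the cell and cross-linked into fibres, mainly by fibroblast-like cells. Type IV chains form the sheet-like basement membrane, which in the brain surrounds blood vessels. Macrophages are better known for taking up and degrading collagen than for making it, and brain tissue away from vessels holds little fibrillar collagen.

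RNA was sequenced from mouse cells grown in culture. The macrophages were derived from bone marrow, and the tumour cells were the line labelled PDG-Ink4a Recurrent, from a mouse glioma model driven by PDGFB in Nestin-positive progenitors with Ink4a/Arf deleted. Cultures held 1 cell type (mono-culture) or both (co-culture), and cells were taken as a control, labelled 0 hours, or at 6 or 24 hours after myelin debris was added, which gave 12 groups of 3 libraries. The labels do not state the strain or age of the mice that gave the macrophages, nor whether the tumour line is a single clone. All tumour cells carry the Ink4a/Arf deletion and the PDGFB driver, in control and treated groups alike. Library totals ran from 7911378 to 15319104 counts, with a median of 12262573. The labels number the libraries of each group 001 to 003 without saying that they came from separate cultures or animals, so every p-value below measures the spread between libraries, which may be technical. Nor do they say how long control cultures were kept, so the effect of myelin and that of time cannot be told apart.

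The tumour libraries carried part of the glioma signature and much of a fibroblast and perivascular one. In mono-culture at 0 h, Cspg4 stood at 825 CPM (a gene's share of a library's counts, scaled by TMM), Vcan at 723 and Pdgfra at 123, while Olig1 had no count in any of the 3 libraries and Sox10, Ptprz1 and Bcan were each below 0.1 CPM. Of 10 fibroblast and perivascular markers, 7 reached 10 CPM there, with Fbln2 at 1569, Cd248 at 756 and Pdgfrb at 583, and their summed level was 2353 to 3504 CPM per library against 1.41 to 2.79 in mono-cultured macrophages at 0 h. Acta2, a contractile gene of pericytes and smooth muscle, was at 2152 CPM. Of the 7 genes found of the pericyte and smooth muscle list, only 2 reached 10 CPM in that group, and Abcc9 had no count. The submitters' protocol calls tumour cells of the in vitro assays MES-like, and says that the macrophages were sorted as dTomato-positive cells. All 10 macrophage markers reached 10 CPM in macrophages, and the same list summed to between 7.00 and 351 CPM in mono-cultured and between 15.8 and 1576 in co-cultured tumour cells at 0 h. At 6 h these ranges were 9.53 to 1207 and 12.1 to 1106 CPM, and at 24 h 10.3 to 1771 and 20.1 to 1351 CPM. The 6 tumour libraries numbered 001 lay between -54.2 and -16.9 on the first principal component, which held 49.3% of the variance, and the other 12 between 2.38 and 39.4, so results that rest on them are given with and without them. In macrophages the 3 mono-cultured libraries numbered 001 lay between -47.3 and -45.7 on the first component and the other mono-cultured ones between -27.2 and -18.1, and in co-culture number 001 was the lowest of each group. The gene CT010467.1 took 17.4% of counts in mono-cultured macrophage library 001 at 0 h against 0.391% and 0.585% in 002 and 003, and 13.4% in tumour library 001 of the same culture and time against 0.399% and 0.641%.

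Promoters of some collagens that lead each cell type are shown here because the report returns to these genes and to gene pairs that lie head to head. RefSeq promoter sequences (assembly GRCm38.p6) were matched for 32 of the 40 genes, with 34 start sites. Col1a1, the most abundant collagen of tumour cells alone at 0 h, was not among them and is not shown. Each line gives the 120 bases before the start site, 5′ to 3′ on the strand of the gene, and capitals mark the TATA box letters TATAAA, the CAAT box letters CCAAT or the GC box letters GGGCGG, on either strand. The fibrillar genes Col1a2 and Col3a1 are among the most abundant in tumour cells. Col18a1 is the most abundant collagen of macrophages kept alone and has 2 annotated start sites. Col4a5 and Col4a6 are the X-linked basement membrane pair. Of the 2 Col18a1 lines, longer marks only the start site further upstream and shorter the one further downstream. The lengths of the spliced transcripts from these sites were not compared.
Col1a2 (chr6:4505498-4505617, plus strand): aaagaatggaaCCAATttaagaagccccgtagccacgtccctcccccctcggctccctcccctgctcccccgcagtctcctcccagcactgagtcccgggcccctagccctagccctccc
Col3a1 (chr1:45311418-45311537, plus strand): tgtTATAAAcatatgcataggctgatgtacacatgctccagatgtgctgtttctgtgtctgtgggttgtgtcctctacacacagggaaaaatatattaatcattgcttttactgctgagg
Col18a1, longer transcript (chr10:77166531-77166650, minus strand): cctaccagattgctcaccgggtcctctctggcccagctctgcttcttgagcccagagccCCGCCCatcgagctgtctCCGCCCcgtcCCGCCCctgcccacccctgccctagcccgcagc
Col18a1, shorter transcript (chr10:77113706-77113825, minus strand): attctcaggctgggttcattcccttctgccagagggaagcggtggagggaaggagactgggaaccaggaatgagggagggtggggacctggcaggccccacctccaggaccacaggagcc
Col4a5 (chrX:141475299-141475418, plus strand): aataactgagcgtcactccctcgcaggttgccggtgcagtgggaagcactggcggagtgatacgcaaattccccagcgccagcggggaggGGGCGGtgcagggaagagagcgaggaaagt
Col4a6 (chrX:141474077-141474196, minus strand): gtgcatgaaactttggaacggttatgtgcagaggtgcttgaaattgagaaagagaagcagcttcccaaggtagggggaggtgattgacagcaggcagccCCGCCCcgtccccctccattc
Of all 32851 promoter windows of this length, 6.34% held TATAAA, 21.3% CCAAT and 26.5% GGGCGG on either strand. Among the 34 collagen start sites the counts were 3, 5 and 17. These matches are descriptions of letters only. Col4a5 and Col4a6 are transcribed away from each other, with 1308 bases between the annotated 5′ ends of the genes on chromosome X. The start sites of the promoters shown lie 1343 bases apart. Col4a1 and Col4a2 lie head to head on chromosome 8, and their annotated starts overlap by the 22 bases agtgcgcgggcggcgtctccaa (chr8:11312805-11312826, plus strand). No source used here gives whether the counting used strand, so reads in that overlap cannot be assigned to one of the pair.

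Tumour cells made a broad set of collagens, led by the fibrillar chains of types I, III and V, whereas macrophages kept alone made Col18a1 and Col4a5 and little else. Collagens took between 2.68% and 4.61% of all counts in the 18 tumour libraries, and between 0.0175% and 0.0358% in the 9 libraries of mono-cultured macrophages. In tumour cells alone at 0 h, 17 of the 40 genes had a mean of at least 100 CPM and 13 were under 1 CPM. In macrophages alone at 0 h, 1 gene reached 100 CPM and 28 were under 1 CPM. The heat map of group means shows the contrast across all 12 groups.

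**Figure D1:**
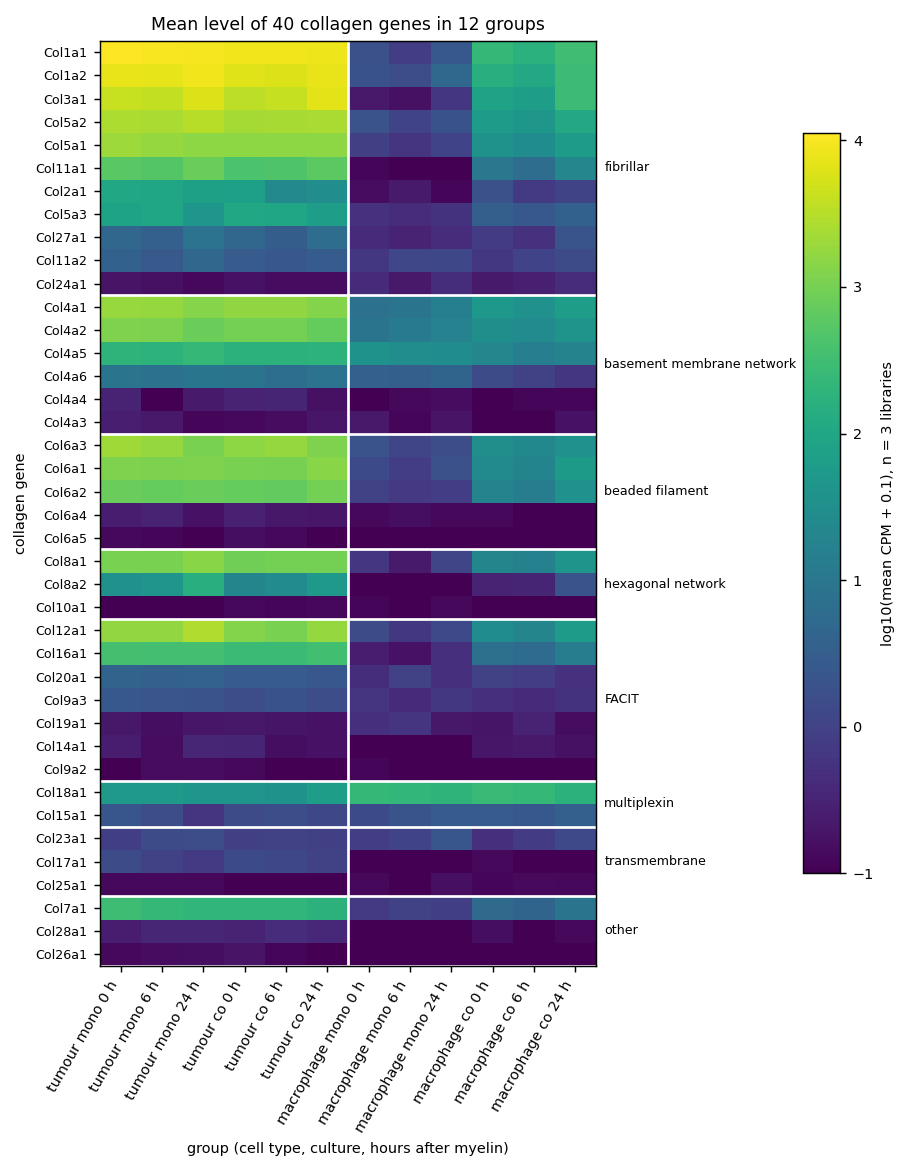
Mean level of each of the 40 collagen genes (rows, grouped by class) in each of the 12 groups (columns), as log10 of the mean CPM of 3 libraries plus 0.1. Tumour cell columns are high for Col1a1, Col1a2, Col3a1, Col4a1, Col4a2, Col6a1, Col6a2, Col6a3 and Col8a1 in every group. Mono-cultured macrophage columns are highest for Col18a1 and Col4a5, and Col4a5 is higher still in tumour cell columns. Co-cultured macrophage columns show the tumour pattern at lower values, beside Col18a1.

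The 3 most abundant genes in tumour cells encode the fibrillar collagens of types I and III. Col1a1 (chr11:94936224-94953042, plus strand) encodes the alpha 1 chain of type I collagen, and in mono-culture at 0 h it stood at 7694, 12976 and 12960 CPM in libraries 001, 002 and 003. Col1a2 (chr6:4504814-4541544, plus strand), its partner chain, stood at 6637, 8211 and 8206 CPM. Col3a1 (chr1:45311538-45349706, plus strand), the type III chain, stood at 2899, 5206 and 4707 CPM. In each of these 3 genes library 001 was the lowest. Together they made up 58.3% ± 1.70 (SD, n = 3) of all collagen counts in that group. Per kilobase of transcript, a scale on which genes can be compared, Col1a1 had a level of 1890 CPM, Col1a2 1437, Col3a1 768 and Col5a2 413. The type V chains Col5a1 and Col5a2, which set the diameter of type I fibrils, had means of 2013 ± 703 and 2736 ± 522 CPM (SD, n = 3). Of the other fibrillar genes, Col11a1 was at 560.5 ± 98.1 CPM, and Col11a2 and Col27a1 were below 10 CPM.

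Among basement membrane collagens, Col4a1 and Col4a2, the chains of the common type IV network, were at 1847 ± 357 and 1187 ± 297 CPM (SD, n = 3) in tumour cells alone at 0 h. Col4a5 was at 193 ± 24.8, and Col4a6 at 8.86 ± 2.15. Of the beaded filament genes, Col6a1, Col6a2 and Col6a3, which encode the 3 chains of the common type VI collagen, were at 1201, 792 and 2105 CPM. Col12a1, a FACIT collagen on the surface of type I fibrils, was at 1714 ± 548 CPM, and Col8a1, a hexagonal network collagen of vessel walls, at 1079 ± 338. In all 12 groups of both cell types, 12 of the 40 genes had means under 1 CPM: Col4a3, Col4a4, Col6a4, Col6a5, Col9a2, Col10a1, Col14a1, Col19a1, Col24a1, Col25a1, Col26a1 and Col28a1. Col7a1, the anchoring fibril collagen, was at 300.1 ± 86.3 CPM. The remaining FACIT genes apart from Col16a1 were below 10 CPM, as were the transmembrane collagens.

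In macrophages alone the most abundant collagens were Col18a1 and Col4a5, of which only Col18a1 was higher there than in tumour cells. Col18a1 (ENSMUSG00000001435, chr10:77052178-77166548, minus strand), whose product carries the endostatin fragment, stood at 198, 258 and 234 CPM in the 3 mono-culture libraries at 0 h and at 47.1, 55.3 and 52.8 CPM in tumour cells alone. No tumour library reached the level of any macrophage library. Col4a5 (chrX:141475385-141689234, plus strand) stood at 165, 208 and 208 CPM in tumour cells alone. In macrophages alone Col4a5 stood at 22.5, 51.7 and 45.9 CPM, with library 001 the lowest. Its head-to-head neighbour Col4a6 (chrX:141165403-141474076, minus strand) stood at 0.577, 5.98 and 3.56 CPM, again lowest in library 001. Per kilobase, Col18a1 had a level of 48.1 CPM in macrophages alone at 0 h, Col4a5 6.13, Col4a2 1.33, Col4a1 1.17 and Col4a6 0.507. Neighbours from Col4a2 to Col4a6 in that order overlapped between libraries. The type I and III genes were near 0, with Col1a1 at 0.577, 1.07 and 3.33 CPM.

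In the comparison of tumour cells with macrophages alone at 0 h, fitted over all 36 libraries with edgeR's quasi-likelihood test, 28 collagens passed the filter on low counts. Of these, 24 were higher in tumour cells and 1 was lower at an adjusted p under 0.05, the call used throughout, while 70% of all 14776 genes tested were called, 37.7% as higher and 32.4% as lower. The median log2 difference of the tested collagens was 9.30, or 8.79 with Col8a2 and Col17a1, which had no count in those macrophages, set at the bound that a floor of 3 counts over the group gives, against 0.04 over all genes. Genes that pass the filter because 1 cell type expresses them had to differ, so the count describes and does not support. Col3a1 differed by 14.98 ± 0.78 (log2 ± SE) and Col1a1 by 12.57 ± 0.88. Col18a1 was lower in tumour cells by a log2 difference of -2.22 ± 0.23 (edgeR, adjusted p = 1.5e-09). Col4a6, Col15a1 and Col23a1 were not called, with log2 differences of 1.21, 0.65 and 0.19. Mono-cultured tumour libraries also held some macrophage marker RNA, as given above, and its part in their Col18a1 level was not tested.

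Myelin was followed by few collagen calls in tumour cells kept alone, and by edgeR's fit of all tumour libraries both were decreases. At 24 h against 0 h, Col6a3 and Col15a1 were lower among 28 collagens tested with edgeR's quasi-likelihood test, against 10.5% of all 13603 genes called, 6.81% as lower. Col6a3 (chr1:90765923-90843971, minus strand), the largest chain of type VI collagen, went from 1350, 2495 and 2470 CPM in libraries 001, 002 and 003 at 0 h to 929, 1116 and 1141 CPM at 24 h. The 2 times did not overlap, and each number was lower at 24 h. The log2 change was -0.99 ± 0.22 (SE, adjusted p = 0.0119). Col15a1 (chr4:47208161-47313167, plus strand), a basement membrane zone multiplexin, went from 2.27, 2.15 and 2.08 CPM to 0.488, 0.386 and 0.579 CPM. Its log2 change was -2.13 ± 0.46 (edgeR, adjusted p = 0.0101), at a level that rests on few counts.

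Libraries of the same number deviated together in tumour cells, and with the number as a block 10 collagens were called at 24 h in mono-culture, 3 higher and 7 lower, against 27.9% of all genes. Besides Col6a3 and Col15a1 the lower ones were Col4a1 and Col4a2, with log2 changes of -0.46 ± 0.11 and -0.49 ± 0.12 (SE), and Col5a3, Col7a1 and Col17a1. Col4a1 went from 1437, 2087 and 2016 CPM to 1127, 1374 and 1520 CPM, lower in all 3 numbers with the times overlapping across numbers. The 3 higher ones were Col12a1, Col27a1 and Col8a2. Col12a1 (chr9:79598991-79718831, minus strand) went from 2347, 1379 and 1417 CPM to 4260, 1904 and 2076 CPM, highest in library 001 at both times, with a blocked log2 change of 0.62 ± 0.20 (SE, adjusted p = 0.0312). Col8a2, partner of Col8a1, went from 35.8, 31.3 and 40.8 CPM to 177, 103 and 169 CPM with no overlap, and its log2 change was 2.05 ± 0.84 without the block (adjusted p = 0.133) and 2.01 ± 0.57 with it (adjusted p = 0.0203). Without the libraries numbered 001, 16 collagens were called, 5 higher and 11 lower, against 35.9% of all genes. Leaving out library 001 of the 0 h group alone raised the count to 7, and leaving out library 002 or 003 of that group lowered it to 1, with Col6a3 no longer called. With only the libraries of the compared groups in the fit, Col8a2 was called as higher and Col15a1 as lower, against 10.4% of all genes, and Col6a3 was not called. The highest macrophage marker sum among these libraries was 351 CPM at 0 h and 1771 CPM at 24 h, and its part in the changes was not tested.

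The plot of 6 collagens by library shows how the numbers differ.

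**Figure D2:**
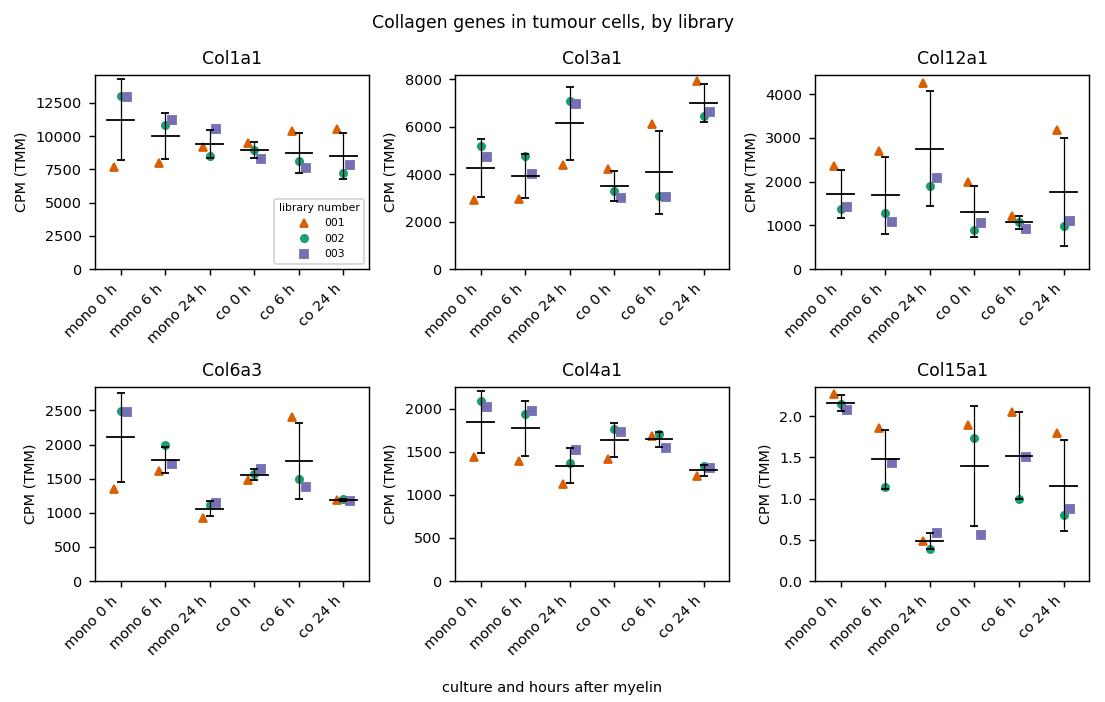
Level in CPM after TMM normalisation (vertical axis, from 0) of 6 collagen genes in tumour cells by culture and hours after myelin (horizontal axis). Symbols are the libraries numbered 001 to 003, horizontal lines the group means and bars ± 1 SD (n = 3). Col6a3 and Col15a1 are lower at 24 h than at 0 h in mono-culture without overlap, and library 001 lies apart from 002 and 003 for Col12a1 in every group except co-culture at 6 h, and for Col1a1 in mono-culture at 0 h.

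In tumour cells co-cultured with macrophages, edgeR called 0 collagens at 24 h against 0 h, while 0.787% of all genes were called. An unadjusted p under 0.05 was reached by 5 of 28, DESeq2 called 1, against 3.26% of all genes, and the block called 1, against 9.28%. DESeq2's call was Col3a1, which went from 4228, 3285 and 2991 CPM to 7920, 6433 and 6625 CPM. All 3 libraries at 24 h lay above all 3 at 0 h, and the log2 change was 1.00 ± 0.30 (SE, edgeR adjusted p = 0.140, DESeq2 adjusted p = 0.0250). The blocked call was Col4a2, which fell by 0.44 ± 0.12 on the log2 scale (edgeR with the block, adjusted p = 0.0373). Without the libraries numbered 001, 10 collagens were called, 5 in each direction, against 22.6% of all genes. Col6a3 in co-culture went from 1480, 1567 and 1636 CPM to 1181, 1206 and 1170 CPM, lower in 3 of 3 numbers without overlap, with a log2 change of -0.40 ± 0.22 (SE, edgeR adjusted p = 0.429). Col15a1 went from 1.90, 1.74 and 0.561 to 1.79, 0.800 and 0.875 CPM, and the times overlapped.

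At 6 h no collagen was called in tumour cells of either culture, against 0.00735% of all genes in mono-culture and 0.0147% in co-culture. Of 28 collagens 0 had an unadjusted p under 0.05 in either culture by edgeR, and DESeq2 also called 0. In mono-culture 24 of 28 lay below their 0 h level, with a median log2 change of -0.12 against 0.00 over all genes. Without the libraries numbered 001, 3 were called lower in mono-culture, against 3.14% of all genes. The difference between the cultures in the 24 h change was tested with an interaction term, which called 0 collagens, with 0% of all genes called, 2 at an unadjusted p under 0.05 and 0 by DESeq2. Without number 001 the same term called 6, each with a higher 24 h change in co-culture than in mono-culture, against 2.31% of all genes. At 6 h the interaction called 0 as well, again with 0% of all genes called, 0 at an unadjusted p under 0.05 and 0 by DESeq2.

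The balance between fibrillar chains was measured as a ratio within each library, which does not depend on scaling and was chosen after the values were seen. Col3a1 over Col1a1 was 0.377, 0.401 and 0.363 in mono-culture at 0 h and 0.476, 0.834 and 0.662 at 24 h. In co-culture it was 0.446, 0.366 and 0.360 at 0 h and 0.754, 0.889 and 0.843 at 24 h. Every library at 24 h lay above every library at 0 h within and across cultures, and at 6 h the ratio was 0.390 ± 0.0440 in mono-culture and 0.454 ± 0.114 in co-culture (SD, n = 3). Col1a1 over Col1a2, the chains that join 1 molecule of type I collagen, was 1.16, 1.58 and 1.58 in mono-culture at 0 h and 0.976, 1.10 and 1.20 at 24 h. In co-culture this second ratio went from 1.19, 1.61 and 1.59 to 0.980, 1.23 and 1.26. It fell in all 3 numbers in both cultures, and the times overlapped, with library 001 the lowest of each group. Col4a1 over Col4a2, the chains of the common type IV molecule, was 1.57 ± 0.109 at 0 h and 1.61 ± 0.0701 at 24 h in mono-culture (SD, n = 3), a difference within the spread. The ratios carry no test because they were picked from these values. The plot of both ratios shows the same libraries.

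**Figure D3:**
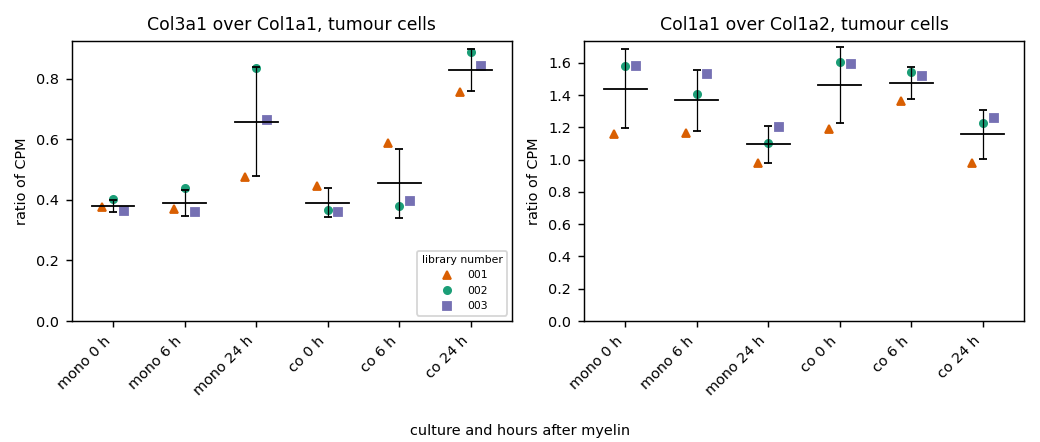
Ratio of CPM (vertical axis, from 0) of Col3a1 over Col1a1 (left) and Col1a1 over Col1a2 (right) in tumour cells by culture and hours after myelin. Symbols are the libraries numbered 001 to 003, lines the means and bars ± 1 SD (n = 3). The left ratio is at least 0.476 in all 6 libraries at 24 h and at most 0.446 in all 6 at 0 h, and library 001 is lowest in each group of the right panel.

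Every comparison of a time with 0 h in 1 culture shares its 0 h libraries with the comparison of the cultures at 0 h. Co-culture with macrophages gave tumour cells no collagen call at any time by edgeR's quasi-likelihood test, but most members lay lower than in mono-culture. At 0 h 24 of 28 collagens had a log2 difference below 0, with a median of -0.29 against 0.00 over all genes, and 0% of all genes were called. At 6 h it was 25 of 28, with a median of -0.157 against -0.002 over all genes, and 0% of all genes were called. At 24 h it was 20 of 28, with a median of -0.186 against -0.014 over all genes, and 0.0809% were called. An unadjusted p under 0.05 was reached by 2, 0 and 3 collagens at 0, 6 and 24 h, and DESeq2 called 0 at each time. With the block, 0, 0 and 1 were called, the last being Col12a1 at 24 h with a log2 difference of -0.73 ± 0.20 (SE, adjusted p = 0.0454), against 6.12% of all genes called.

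For the leading fibrillar genes the libraries numbered 001 went the other way. At 0 h Col1a1 in libraries 001, 002 and 003 was 7694, 12976 and 12960 CPM without macrophages and 9491, 8975 and 8308 CPM with them, higher in co-culture for 001 and lower for 002 and 003. Col3a1 was 2899, 5206 and 4707 CPM without macrophages and 4228, 3285 and 2991 CPM with them, with the same split. Without number 001, which leaves 2 libraries against 2, edgeR called 18 collagens as lower in co-culture at 0 h, 16 at 6 h and 12 at 24 h, and 0 as higher. The shares of all genes called as lower in that fit were 7.58%, 5.78% and 10.4%. Its 0 h log2 differences were -0.59 ± 0.10 for Col1a1, -0.67 ± 0.09 for Col3a1 and -0.64 ± 0.08 for Col6a3 (SE), and those of Col4a1 and Col4a2 were -0.24 and -0.30. The macrophage marker sum in these libraries is given above, and its part in the difference was not tested. Fewer cells of a type and less RNA per cell cannot be told apart in these bulk samples.

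Co-cultured macrophages carried collagens that were near 0 in macrophages alone, and for most of the abundant ones the group mean lay near the level that an estimated tumour RNA share gives. Collagens took 0.0552% to 0.188% of counts in the 9 co-cultured macrophage libraries. At 0 h edgeR called 16 of 25 tested collagens as higher than in mono-culture and 0 as lower, against 13.7% of all 13165 genes called, 7.69% as higher. At 6 h it was 13 higher and 0 lower, against 9.94% of all genes, 5.81% as higher, and at 24 h 17 higher and 1 lower, against 28% of all genes, 14.3% as higher and 13.7% as lower. The median log2 differences of the tested collagens were 3.98, 2.60 and 4.63, against -0.02, -0.03 and -0.03 over all genes, and they were the same with Col11a1 set at its bound where it had no count. In fits of mono-cultured libraries alone 12 collagens passed the filter on low counts. Collagens that passed it only through the co-cultured libraries had to differ, so these counts and medians describe and do not support. Without number 001, the counts were 16 higher and 0 lower at 0 h, 14 and 0 at 6 h, and 15 and 1 at 24 h, against 12.7%, 9.01% and 23.1% of all genes called.

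The tumour RNA share of each macrophage library was estimated from 50 marker genes that are not collagens, each at least 100 CPM in tumour cells alone, as the median of their level over that in co-cultured tumour cells of the same time. It was 2.48% ± 1.28 at 0 h, 1.99% ± 1.38 at 6 h and 4.54% ± 0.464 at 24 h in co-culture (SD, n = 3), against 0.0171%, 0.0175% and 0.0385% in mono-culture. All co-cultured libraries lay above all mono-cultured ones. The markers were ranked by their level in tumour cells alone over that in macrophages alone at 0 h, so the low share of those mono-cultures was set by the choice and the difference at 0 h is given without a test. At 6 h and 24 h the exact permutation test gave p = 0.1, two-sided, which is the smallest this design allows. The marker choice also bears on mono-cultures at those times, so this p-value describes and does not support. The tumour RNA share of each co-cultured library was then multiplied by the level of each collagen in co-cultured tumour cells. The product was set beside the level measured in co-cultured macrophages, both as CPM without TMM. Over the 17 collagens with at least 100 CPM in co-cultured tumour cells at 0 h, the median of measured over share-derived level was 1.03, and 16 lay between 0.5 and 2. At 6 h the median over 16 genes was 0.982 and at 24 h 0.934, with 15 of 16 between 0.5 and 2 at both. The lowest was Col6a3 each time, at 0.836, 0.673 and 0.707, and the highest was Col4a5.

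The 3 leading fibrillar genes followed the order of the share at 0 h, but Col1a1 and Col1a2 did not at 24 h. For Col3a1 the order at 24 h depended on the scaling. Its CPM without TMM, the scale of the share, followed the share, and its TMM-scaled CPM did not. At 0 h the co-cultured macrophage libraries 001, 002 and 003 had tumour RNA shares of 1.28%, 3.83% and 2.34%. Col1a1 stood at 118, 347 and 212 CPM in them, lowest in 001 and highest in 002 as the share was. Its level was 0.956 to 1.07 times the share-derived one. Col1a2 stood at 92.5, 210 and 127 CPM, and Col3a1 at 53.6, 120 and 70.2 CPM, in the same order of libraries. At 24 h the shares were 4.02%, 4.91% and 4.69%, lowest in 001. Col1a1 stood at 390, 312 and 259 CPM, Col1a2 at 377, 262 and 246 CPM and Col3a1 at 287, 293 and 272 CPM, against 0.602, 1.56 and 4.80 for Col1a1 in macrophages alone. Library 001 was the highest for Col1a1 and Col1a2, and Col1a1 was 0.694 to 1.12 times its share-derived level, which uses the mean of the tumour libraries. In co-cultured tumour cells at 24 h, library 001 was also the highest for both. Col1a1 stood there at 10499, 7239 and 7859 CPM and Col1a2 at 10716, 5887 and 6241 CPM. Col3a1 was highest in tumour library 001 too, at 7920 CPM, but not in macrophage library 001. The part of these tumour levels was not tested. The log2 differences between cultures at 24 h were 7.07 ± 0.71 for Col1a1, 5.93 ± 0.68 for Col1a2 and 8.98 ± 0.56 for Col3a1 (SE, edgeR adjusted p of 1.3e-05, 3.3e-05 and 4.7e-07). Col11a1, a minor fibrillar chain, had no count in macrophages alone at 24 h and stood at 28.3, 17.3 and 18.0 CPM in co-culture, at least 273-fold higher by a floor of 3 counts over the group.

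Other collagens of tumour cells were also higher in co-cultured than in mono-cultured macrophages. Col5a1 and Col5a2 at 24 h were at 59.9, 70.4 and 55.5 CPM and at 106, 121 and 110 CPM in co-cultured macrophages, all above every mono-cultured library. The type VI chains Col6a1, Col6a2 and Col6a3 were at 63.6, 55.1 and 46.6 CPM, at 42.9, 33.9 and 32.0 CPM and at 35.6, 34.8 and 39.2 CPM. Col8a1 was at 37.2, 41.6 and 46.3 CPM, with share-derived levels matched to 0.977 times. Col12a1 was at 106, 33.7 and 49.2 CPM, highest in library 001 as in tumour cells. Col4a1 was at 56.3, 82.6 and 59.8 CPM against 4.81, 21.5 and 18.3 CPM in macrophages alone, and was called at 0 h and 24 h but not at 6 h (edgeR adjusted p of 0.0148, 0.0179 and 0.0679). Col4a2, not called at any time, was at 31.3, 54.8 and 37.6 CPM against 7.82, 28.0 and 16.9 CPM, and with the block at 0 h it was called at a log2 difference of 1.91 ± 0.26 (SE, adjusted p = 0.000198). The block at 0 h, with 19.5% of all genes called, also added Col5a3, a minor type V chain, at 3.01 ± 0.87 (SE, edgeR adjusted p = 0.0257). Both type IV genes lay above their share-derived level, by 1.25 and 1.35 times at 0 h, and subtracting their mono-culture level brought these to 1.06 and 1.01. After the same subtraction they were 0.888 and 0.850 at 6 h and 0.937 and 0.783 at 24 h. The call of Col2a1, the cartilage fibril chain, at 24 h rested on library 001, which held 2.80 CPM against 0.0704 and 0.157 in 002 and 003. Without number 001 Col2a1 and Col5a3 were not called at 24 h.

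**Figure D4:**
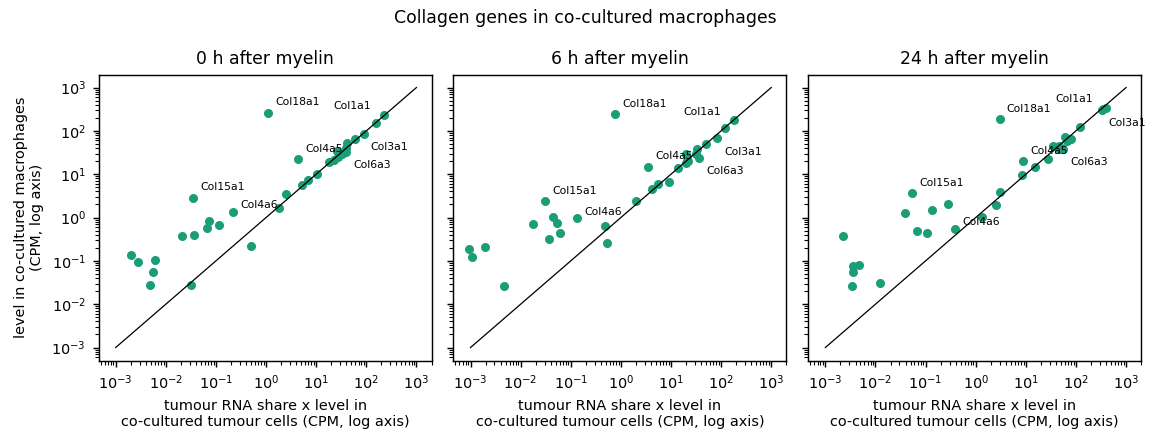
Level of each collagen gene in co-cultured macrophages (vertical log axis, mean CPM of 3 libraries) against the tumour RNA share times its level in co-cultured tumour cells (horizontal log axis, CPM) at 0, 6 and 24 h, genes at 0 left out. The line marks equal values. Genes above about 1 CPM on the horizontal axis lie along the line, except Col18a1 and Col4a5 above it.

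Col18a1, Col4a5 and Col4a6 also had counts in macrophages alone, as Col4a1 and Col4a2 did. At 0 h Col18a1 differed little between cultures, and Col4a5 and Col4a6 had lower means in co-culture. Col18a1 was at 212, 275 and 283 CPM in co-culture at 0 h against 198, 258 and 234 CPM in mono-culture, 240 times its share-derived level, and its log2 difference was 0.16 ± 0.18 (SE, edgeR adjusted p = 0.640). Col4a5 was at 13.4, 30.0 and 21.8 CPM in co-culture against 22.5, 51.7 and 45.9 CPM in mono-culture at 0 h, lower in all 3 numbers with the cultures overlapping. Its log2 difference was -0.89 ± 0.43 without the block (edgeR adjusted p = 0.209) and -0.89 ± 0.14 with it (adjusted p = 0.000357). At 6 h and 24 h it was again lower in 3 of 3 numbers, by log2 differences of -1.12 ± 0.44 and -0.64 ± 0.44 (SE, edgeR adjusted p of 0.139 and 0.303). The tumour RNA in these libraries would by the same share hold 4.38 CPM of Col4a5 at 0 h. Col4a6 was at 0.630, 2.61 and 0.649 CPM against 0.577, 5.98 and 3.56 CPM at 0 h, not called without the block (adjusted p = 0.336) and called with it at -1.41 ± 0.46 (SE, edgeR adjusted p = 0.0436). At 24 h it was at 0.541, 0.634 and 0.392 CPM against 0.501, 7.74 and 4.22 CPM, a log2 difference of -2.98 ± 0.95 (SE, edgeR adjusted p = 0.0288), although library 001 was low in both cultures. The call was lost when any 1 of 5 of the 6 libraries was left out and without the filter on low counts.

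Col15a1 was low in macrophages and, at 0 h, higher in co-culture. It was at 2.84, 2.97 and 2.68 CPM in co-culture at 0 h against 1.01, 1.01 and 1.86 CPM in mono-culture, without overlap. The log2 difference was 1.11 ± 0.26 (SE, edgeR adjusted p = 0.00902), and its level was 81.8 times the share-derived one. That ratio includes the level that macrophages alone hold, and subtracting that level gave 46.2. The part of tumour RNA was not tested. The call was lost without number 001, without mono-culture library 002 and with only the compared groups in the fit.

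After myelin, macrophages kept alone had 1 collagen called at 24 h, against 15.2% of all genes, 7.57% as higher, and it was Col15a1. It went from 1.01, 1.01 and 1.86 CPM to 2.41, 2.98 and 3.23 CPM, higher in all 3 numbers without overlap, with a log2 change of 1.13 ± 0.26 (SE, edgeR adjusted p = 0.00942). It was not called when library 002 at 0 h was left out or with only the compared groups in the fit. With the block 5 were called, against 22.2% of all genes: Col15a1, Col4a2 and the transmembrane collagen Col23a1 as higher, and Col4a5 and Col18a1 as lower. Col4a5 went from 22.5, 51.7 and 45.9 CPM to 15.2, 42.0 and 28.8 CPM, with a blocked log2 change of -0.51 ± 0.14 (SE, adjusted p = 0.0151). Col18a1 went from 198, 258 and 234 CPM to 158, 222 and 192 CPM, with a blocked change of -0.28 ± 0.09 (SE, edgeR adjusted p = 0.0354). Col4a2 went from 3.03, 11.5 and 11.2 CPM to 7.82, 28.0 and 16.9 CPM, with a blocked change of 0.99 ± 0.27 (SE, edgeR adjusted p = 0.0182).

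**Figure D5:**
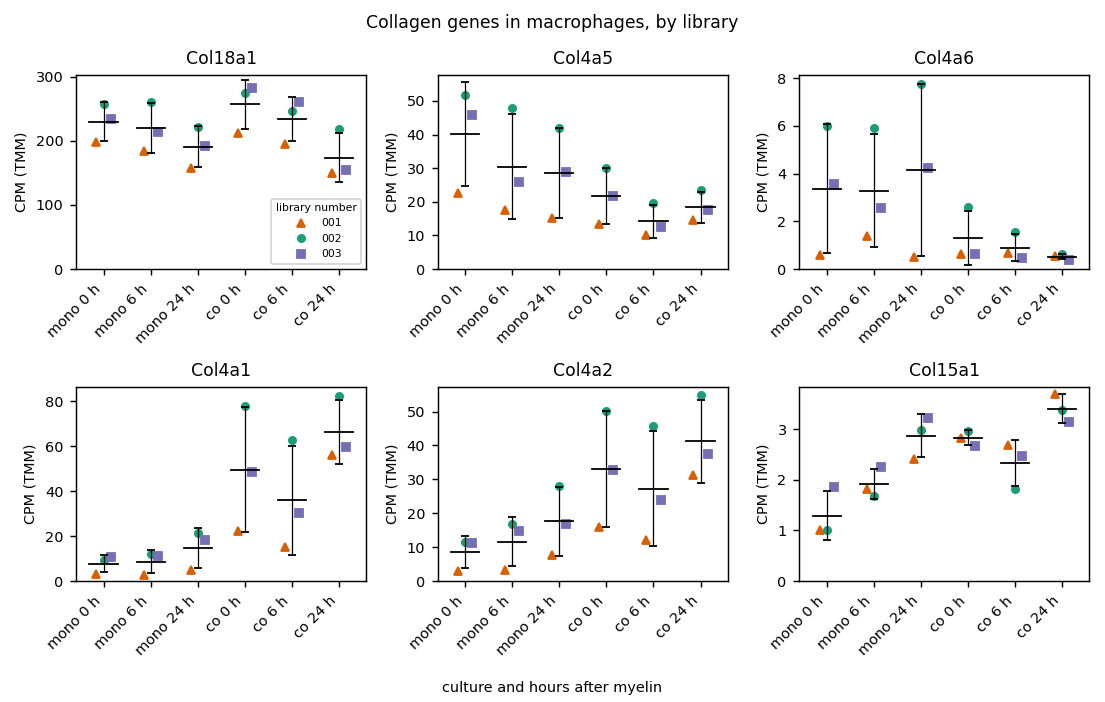
Level in CPM after TMM normalisation (vertical axis, from 0) of 6 collagen genes in macrophages by culture and hours after myelin. Symbols are the libraries numbered 001 to 003, lines the means and bars ± 1 SD (n = 3). Col4a5 is lower in co-culture than in mono-culture for each number at each time, Col4a1 and Col4a2 are higher, and Col15a1 is higher at 24 h than at 0 h in mono-culture.

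In co-cultured macrophages the single call at 24 h against 0 h was Col3a1, against 11.4% of all genes, 5.39% as higher. It went from 53.6, 120 and 70.2 CPM to 287, 293 and 272 CPM without overlap, a log2 change of 1.80 ± 0.33 (SE, edgeR adjusted p = 0.00387). The tumour RNA share and the level of Col3a1 in tumour cells were both higher at 24 h, and the measured level was 0.954 times the share-derived one at 0 h and 0.934 times at 24 h. With the block 4 were called, against 19.7% of all genes: Col3a1, Col11a1 and Col27a1 as higher and Col18a1 as lower. Col18a1 went from 212, 275 and 283 CPM to 150, 219 and 154 CPM, lower in all 3 numbers, with log2 changes of -0.56 ± 0.18 without the block (edgeR adjusted p = 0.0579) and -0.57 ± 0.09 with it (adjusted p = 0.000502). At 6 h no collagen was called in either culture, against 2.15% of all genes in mono-culture and 0.213% in co-culture, with 0 at an unadjusted p under 0.05 by edgeR and 0 called by DESeq2. The interaction of culture with myelin called 0 collagens at 6 h and 24 h by edgeR and 0 by DESeq2, against 0% and 0.0152% of all genes, with 1 at an unadjusted p under 0.05 at each time.

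Genes that process, bind or receive collagen were followed as lists. In tumour cells alone at 24 h, 3 of 28 tested genes for collagen synthesis, folding and cross-linking were lower and 0 were higher, against 10.5% of all genes called, 6.81% as lower, with a median log2 change of -0.01 against 0.01 over all genes. They were Adamts14, a procollagen N-proteinase (77.5 to 25.3 CPM, log2 -1.62 ± 0.48), Pcolce2, an enhancer of procollagen C-proteinase (log2 -0.99 ± 0.15, to 25.2 CPM at 24 h), and the lysyl oxidase Loxl4 (38.4 to 21.9 CPM, -0.81 ± 0.24). Among 23 collagen-binding matrix genes Dcn, which coats type I fibrils, was higher (20.6 to 68.1 CPM, log2 1.72 ± 0.46) and Tnc, an adhesion-modulating glycoprotein, was lower (2079 to 569 CPM, -1.87 ± 0.47). Of 13 receptor and uptake genes only the collagen-binding integrin subunit Itga2 was called, as lower, at under 10 CPM. With the block the counts were 2 higher and 3 lower for synthesis, 5 and 1 for receptors, and 7 and 2 for binding genes, against 27.9% of all genes. The receptors called as higher with the block included Mrc1 (1.67 to 10.8 CPM) and Lair1 (1.88 to 6.02 CPM), both abundant in macrophages, and the macrophage marker sum of these libraries, up to 351 CPM at 0 h and 1771 CPM at 24 h, moved with them. Its part was not tested. In co-cultured tumour cells no member of the 3 lists was called at 24 h by edgeR, and with the block the counts were 2 higher and 3 lower, 2 and 0, and 7 and 2, against 9.28% of all genes.

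Between the cell types alone at 0 h, 26 of 28 synthesis genes were higher in tumour cells and 2 were lower, Plod1 and Colgalt1, against 70% of all genes called, 37.7% as higher. List genes that passed the filter through 1 cell type had to differ, so these counts are descriptions. Colgalt1, which glycosylates hydroxylysine, was at 362 CPM in macrophages and 268 in tumour cells, each scaled within its own cell type. Of 13 receptor and uptake genes 10 were higher in tumour cells and 3 lower. The 3 were the inhibitory receptor Lair1 at 254 CPM in macrophages against 1.88, the mannose receptor Mrc1 at 99.8 against 1.67, and the dipeptidase gene Pepd. After 24 h of myelin in macrophages alone, Tgfbi, a collagen-binding secreted protein, was lower (685 to 267 CPM, log2 -1.36 ± 0.41), as were Lair1 (254 to 178 CPM, -0.52 ± 0.15), Adgrg6 (26.8 to 20.2 CPM, -0.41 ± 0.12) and the prolyl hydroxylase subunit P4ha1 (121.8 to 89.1 CPM, -0.45 ± 0.13), against 15.2% of all genes called. P3h3, a prolyl 3-hydroxylase, was the 1 list gene called as higher (4.96 to 7.72 CPM, log2 0.66 ± 0.19, edgeR adjusted p = 0.0266). In co-cultured macrophages at 24 h against 0 h, Plod1, P3h3, Plod2, P4ha2, Itga11, Postn and Ogn were called as higher and 0 list genes as lower. Of all genes 11.4% were called there, 5.39% as higher. In co-cultured against mono-cultured macrophages, 17, 12 and 21 of 26 synthesis genes were higher at 0, 6 and 24 h and 0, 0 and 1 lower. Of 12 receptor and uptake genes, 5, 5 and 8 were higher and 0, 0 and 1 lower. Of 19 binding genes, 17, 15 and 18 were higher and 0 lower at each time. The shares of all genes called as higher were 7.69%, 5.81% and 14.3%, and 13.7% were lower at 24 h. Some of these genes, among them Pcolce2 and Loxl4, were under 1 CPM in macrophages alone at 24 h, and those that passed the filter only through co-culture had to differ. At 24 h the lower synthesis gene was Colgalt1, from 410 to 263 CPM with a log2 difference of -0.64 ± 0.11 (SE, edgeR adjusted p = 0.00036). Lox, the founding lysyl oxidase, was at 3.72 CPM at 24 h in mono-cultures and at 117 CPM when co-cultured. The tumour RNA share given above also moved with these lists. Fkbp10 of the synthesis list, Itga11 and Mrc2 of the receptors, and Bgn, Lama2, Nid1, Ogn, Sparc and Thbs2 of the binding genes are themselves among the 50 markers of that share. Its part in the lists was not tested.

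The change of Col15a1 after myelin went in opposite directions in the 2 cell types kept alone. A comparison of the 24 h change between tumour cells and macrophages, added after these values were seen, gave a log2 difference of -3.29 ± 0.51 for Col15a1 (SE, edgeR adjusted p = 0.000266). It was the single collagen called among 28, against 3.9% of all genes, 2.31% as lower. Without number 001, with 4.95% of all genes called as lower, Col4a1 and Col4a2 were called as well, with differences of -1.46 and -1.51. In both cell types Col15a1 was under 4 CPM in every library.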

How the data were processed

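RNA from 36 libraries in 12 groups of 3 was measured by sequencing after oligo-dT priming and template switching from nanograms of RNA, per the labels' protocols. The authors deposited a table of raw read counts per gene with gene coordinates, and the build is mm10, per the submitters' processing notes. The sources used here do not give the aligner, the counter or its use of strand. All 40 collagen coordinates matched GENCODE M21, and gene lengths are those of the longest principal transcript there. Total counts per library were 7911378 to 15319104, which limits genes under about 1 CPM to few counts.

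Counts were analysed in R 4.3.3 with edgeR 4.0.16 (filterByExpr, TMM, robust quasi-likelihood fit, Benjamini-Hochberg over all genes tested, called under 0.05) and limma 3.58.1. One fit held the 18 tumour libraries, one the 18 macrophage libraries, and one all 36 for comparisons between cell types. The 28, 25 and 28 collagens that passed the filter were tested. The printed CPM are TMM-scaled unless stated. The scripts were tested on simulated data. DESeq2 1.42.0, other size factors, no filter, the library number as a block, the compared groups alone, and leaving out libraries were tried as alternatives.

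The labels do not say that a number pairs libraries. Deviations from group means of same-numbered libraries correlated above the limit of 0.1 in every pair for all 9 tumour comparisons tested and for the macrophage comparisons except co-culture against mono-culture at 6 h (lowest -0.0197) and 24 h (0.0661) and both interactions of culture and myelin (-0.0586 and 0.0661).

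The members and gene lists were chosen with earlier results of these data known. Per-library values were to be given for collagens called in a cell type with a group mean of at least 10 CPM, at most 12 per cell type by highest group mean, and for the 3 with the highest group mean, and up to 3 called members of each pathway list per comparison at 10 CPM or more. Other collagens and list genes given by value, the ratios and the comparison of the myelin change between cell types were chosen after their values were seen. The tumour RNA share used 50 marker genes of at least 100 CPM with 0.1 CPM added when ranking them.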

Additional observations from a re-analysis of the deposited data

Results flagged for a closer look

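The change of Col15a1 from 0 h to 24 h in mono-culture differed between the cell types by a log2 value of -3.29 ± 0.51 (SE, edgeR's quasi-likelihood test, adjusted p = 0.000266), lower in tumour cells and higher in macrophages. Each of the 3 numbers was lower at 24 h in tumour cells, and each was higher at 24 h in macrophages. The comparison was added after the values of both cell types were seen, and it rests on levels under 4 CPM.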

How the results depend on the processing

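RLE size factors and no filter on low counts changed no count of collagens called by more than 1.5 times, and no called log2 change of a collagen reversed under any alternative run. At 24 h against 0 h, counts moved in 4 comparisons. In tumour cells alone, where 2 were called, DESeq2 called 4, the replicate block 10, the libraries without number 001 16, and single libraries left out 1 to 7. In co-cultured tumour cells, where 0 were called, DESeq2 called 1, the block 1, the libraries without number 001 10, and single libraries left out 0 to 1. In macrophages alone, where 1 was called, the block called 5, the compared groups alone 0, the libraries without number 001 2, and single libraries left out 0 to 2. In co-cultured macrophages, where 1 was called, DESeq2 called 2, the block 4, the compared groups alone 3, the libraries without number 001 3, and single libraries left out 1 to 2. Without number 001, tumour cells alone at 6 h had 3 calls, co-culture against mono-culture of tumour cells 18, 16 and 12 at 0, 6 and 24 h, their interaction at 24 h 6 and the difference between cell types 3. The block gave 1 call in tumour cells between cultures at 24 h. The cause of these moves was not tested. Between macrophage cultures, whose numbers did not pair at 6 h and 24 h, the block gave 15 higher and 2 lower at 6 h and 18 and 2 at 24 h, against 2053 and 4675 of all 13165 genes called. Beyond the calls given here and in the results, the block changed no count by more than 1.5 times. In the fits that left out 1 library or all of number 001, called log2 changes of collagens kept their call 515 times and lost it 30 times. The tumour RNA share and summed collagen levels moved by less than 1 SD under every alternative run. Leaving out 1 of 3 libraries cannot move a group mean by 1 SD, so those runs could not have shown otherwise. Depth limits Col15a1, Col4a6 and the genes under 1 CPM.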
